A study of Mus musculus with 6 samples.

Results

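Among 1666 endothelial barcodes in single-cell libraries of adult mouse brain, 65 carried at least 3 UMIs (unique molecular identifiers, each standing for 1 captured RNA molecule) of Plvap, Esm1, Igfbp3 and Cd24a in sum. A barcode counted as endothelial when Cldn5, Flt1, Pecam1 and Cdh5 gave at least 5 UMIs and more than Vtn, Rgs5 and Slc1a3 together, out of 6323 barcodes with at least 300 genes and at most 20% mitochondrial UMIs among the 7433 deposited. The 65 barcodes were thus chosen by the measured values of the 4 genes, and the levels of those genes are given as a description. The 65 were of 2 kinds. In 35 of them Plvap was present together with Cd24a, Plpp1 and Plpp3, and the barrier genes Cldn5, Slco1a4 and Slc2a1 were at or near 0. The other 30 had no UMI of Plvap or Esm1, were chosen mostly through Igfbp3, carried Cldn5 and transporter RNA, the latter at a lower summed level than in the barcodes not chosen, and had more RNA of arterial genes than most endothelial barcodes. The name Plvap and Esm1 expressing endothelial cells therefore applied to the first kind only. Its Esm1 part held less well there, since Esm1 was seen in 27 of the 35 with a median of 1 UMI.

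Cells came from cortex and subventricular zone of mice aged 8 to 12 weeks and were sorted without CD45-positive cells, the endothelium by CD31 in the absence of Glast and the neural stem and progenitor cells by Glast in the absence of CD31. There were 3 groups of 2 libraries: control (Cx43flox/flox, with loxP-flanked alleles of connexin 43, encoded by Gja1), Cx43GlastiKO (titled Glast) and Cx43ECiKO (titled Vecad), names that mark a knockout of connexin 43 in Glast-expressing and in endothelial cells. The labels do not give the Cre lines, the induction, the number of animals in a library or the region of a cell, so cortical and subventricular cells cannot be told apart. They call the libraries of a group biological replicates.

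Most vessels of the brain have a barrier: their endothelial cells are sealed by tight junctions that contain claudin 5 (Cldn5), move nutrients through dedicated transporters, and depend on Wnt signalling to keep both. Plvap is the structural protein of the diaphragms that span fenestrae and caveolae. It is found in endothelium of peripheral organs, of the choroid plexus and of the circumventricular organs, and is switched off as brain vessels acquire the barrier. Esm1 encodes endocan, a secreted proteoglycan known from sprouting tip cells, Igfbp3 a secreted binding protein of insulin-like growth factors, and Cd24a a small surface glycoprotein.

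On mm10, Plvap lies on chromosome 8 from 71497765 to 71511752 (minus strand), Esm1 on chromosome 13 from 113209659 to 113218098 (plus), Igfbp3 on chromosome 11 from 7206086 to 7213923 (minus) and Cd24a on chromosome 10 from 43578284 to 43584265 (plus). Plpp1 lies on chromosome 13 from 112800792 to 112867894 (plus), close to Esm1, and Plpp3 on chromosome 4 from 105157347 to 105232764 (plus).

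The libraries numbered 1 were mostly endothelial and those numbered 2 mostly not: endothelial barcodes were 721, 438 and 381 in replicate 1 of control, GlastiKO and ECiKO, and 43, 62 and 21 in replicate 2. Library totals ran from 1735247 to 14859187 UMIs. One cell barcode occurred in 2 libraries. Gja1 RNA was higher in ECiKO endothelium than in control endothelium, at 229 and 210 CPM (UMIs of a gene per 1000000 UMIs of the summed barcodes) against 92.6 and 110 CPM. By edgeR its log2 fold change was 1.20 (SE 0.32, adjusted p = 0.0612) and was not called. It was called at 1.64 without the chosen barcodes (adjusted p = 0.00271) and at 1.23 with a replicate block (adjusted p = 0.00201). Of the 242 Gja1 UMIs in the endothelium of control replicate 1, 170 lay outside the chosen barcodes. The cause was not tested. The counts come from the 3′ end of transcripts, and the labels do not say which part of the gene is floxed, so these levels do not check the labels.

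Chosen barcodes were found in all 6 libraries, 40 of them in control replicate 1. They made up 5.55% of its endothelial barcodes (exact Clopper-Pearson 95% interval 3.99 to 7.48). The share was 2.28% in GlastiKO replicate 1 (10 barcodes, interval 1.10 to 4.16) and 2.62% in ECiKO replicate 1 (10 barcodes, interval 1.27 to 4.77). The libraries numbered 2 held 2, 2 and 1 chosen barcodes in control, GlastiKO and ECiKO, or 4.65%, 3.23% and 4.76% of few endothelial barcodes. Their intervals reach from under 1% to 11.2% or more, and do not separate them from any other library. The chosen barcodes were deeper than the rest, with a median of 5603 against 3366 UMIs in control replicate 1, and a deeper barcode reaches 3 UMIs more easily.

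The Plvap-carrying barcodes were spread less evenly. Control replicate 1 held 32 of the 35, control replicate 2 held 1, GlastiKO replicate 1 held 2, and the other 3 libraries held none. Chosen barcodes with Plvap were 4.44% of the endothelial barcodes in control replicate 1 (interval 3.06 to 6.21) and 0.457% in GlastiKO replicate 1 (interval 0.0553 to 1.64), intervals that do not overlap but cover counting error only. In ECiKO replicate 1, 0 of 381 allows a share of up to 0.787% by a floor of 3 counts, and the upper end of its exact interval was 0.964%. Against the libraries as replicates the difference cannot be judged: the mean share was lower by 3.15 percentage points in GlastiKO and by 3.38 in ECiKO than in control, with p = 0.333 in the exact two-sided permutation test, the smallest that 2 libraries against 2 allow. For the share of all chosen barcodes the same exact permutation test gave p = 0.333 in GlastiKO and 0.667 in ECiKO (adjusted over 6 comparisons 0.667 and 0.8). The barcodes were chosen by these genes and were known to lie mostly in control replicate 1. The shares and their p-values are therefore a description and give no evidence on genotype.

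The threshold of 3 UMIs cut through a tail of low sums. Of the endothelial barcodes, 1536 had no UMI of the 4 genes, 46 had 1, 19 had 2 and 11 had exactly 3. The sum was 3 to 5 in 23 barcodes, 6 to 8 in 1 and at least 9 in 41, among them all 35 with Plvap. The Plvap-carrying ones ran from 9 to 165. A threshold of 2 or 5 UMIs would have left 46 or 36 chosen barcodes in control replicate 1, 17 or 5 in GlastiKO replicate 1 and 15 or 5 in ECiKO replicate 1. Outside the endothelial barcodes, 19 of 4657 carried a Plvap UMI and 1 of them carried 3 or more. In control replicate 1, Plvap was seen in 2 of the 681 endothelial barcodes that were not chosen. With every barcode thinned to 1000 UMIs it remained in 31 of the 32, and was in 0 of 641 of the others, which allows a share of up to 0.468%. The 32 were grouped by a Plvap UMI, and the others could hold at most 2 UMIs of the 4 genes. The choice thus set this contrast in advance, and the values only describe it.

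**Figure D1:**
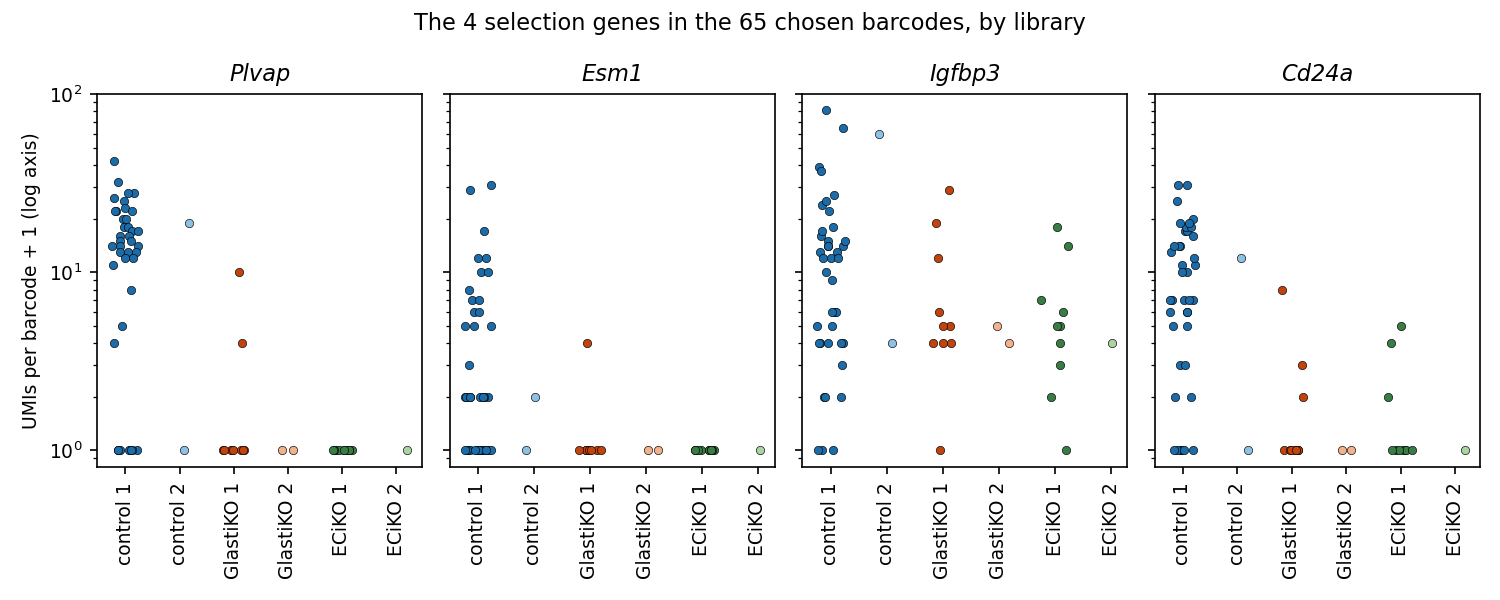
UMIs per barcode plus 1 (log axis) of Plvap, Esm1, Igfbp3 and Cd24a in the 65 chosen barcodes, 1 point per barcode, by library. Plvap reaches 41 UMIs and is seen in 32 barcodes of control replicate 1, 1 of control replicate 2 and 2 of GlastiKO replicate 1, while Igfbp3 is seen in every library.

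In the 35 Plvap-carrying barcodes, Plvap had 3 to 41 UMIs per barcode with a median of 15. Cd24a was present in all of them (1 to 30 UMIs, median 10). Igfbp3 was present in 31 (0 to 80, median 12) and Esm1 in 27 (0 to 30, median 1), so Esm1 was the least regular of the 4. In the 30 barcodes without Plvap, Igfbp3 was present in 29 (0 to 28 UMIs, median 4) and Cd24a in 6. By the gene with the most UMIs, Igfbp3 led 38 of the 65 barcodes, Plvap 15, Cd24a 7 and Esm1 3, and 2 were tied.

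The next paragraphs compare the 32 Plvap-carrying barcodes of control replicate 1 with the 681 endothelial barcodes of that library that were not chosen. This is 1 library, so there is no test across samples. The ratios carry exact 95% intervals that cover counting error only, and where the other group had no UMI the ratio is a lower bound against a floor of 3 counts. As background, of 8358 genes with at least 30 UMIs, 8.67% were at least 2-fold higher and 11.9% at least 2-fold lower with an interval off 1, and the median log2 ratio was -0.17. These shares describe barcodes picked by 4 genes and give no support to the choice. A gene near 0 in the rest of the library could reach 30 UMIs only through the 32 barcodes, so counts over lists are descriptions too. Some genes stand in more than 1 list.

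Flt1, Pecam1 and Cdh5 were among the genes that made a barcode count as endothelial, so their presence was required by the choice. Flt1, a receptor of vascular endothelial growth factor (VEGF), stood at 4592 CPM against 6517, Pecam1, a junctional adhesion molecule, at 1037 against 759, and Cdh5, the cadherin of endothelial junctions, at 1098 against 615. Of the endothelial list, 12 genes lay outside the rule and had at least 30 UMIs. Of these, 2 were at least 2-fold higher (Kdr and Emcn) and none at least 2-fold lower.

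Cldn5 stood apart from the other genes that marked a barcode as endothelial. It had 4 UMIs in all of the 32 barcodes, or 22.2 CPM, against 5278 CPM in the rest of the library, a level 238-fold lower (interval 92.9 to 873). In the 35 Plvap-carrying barcodes of all libraries, 31 had no Cldn5 UMI and 4 had 1. Of the other junction genes, Ocln and Lsr, which act at tight junctions and tricellular junctions, had no UMI in the 32 barcodes and were at least 20.5-fold and 22-fold lower. Tjp1, the scaffold ZO-1, was 2.65-fold lower (interval 1.98 to 3.63), and Esam, an adhesion molecule, was at 599 CPM against 736. In all, 4 of 13 junction genes were at least 2-fold lower and none was higher.

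All 22 genes of barrier transport were at least 2-fold lower in the 32 barcodes, with a median log2 ratio of -4.33. Slc2a1, the glucose transporter, had 4 UMIs and was 85.6-fold lower (interval 33.4 to 314). Slco1a4 and Slco1c1, organic anion transporters, had 1 and 2 UMIs, or 5.55 and 11.1 CPM against 5042 and 2784. Slc7a5, the large neutral amino acid transporter, and Mfsd2a, the transporter of lysophosphatidylcholine, had none, and were at least 52.3-fold and 27.8-fold lower. Tfrc, the transferrin receptor, had 1 UMI, at 5.55 CPM against 1192. Bsg, the chaperone of monocarboxylate transporters, remained at 460 CPM and was 23.9-fold lower (interval 19.3 to 30.0). The drop was least in Itm2a among the 4 most abundant genes of the list, at 654 CPM against 3514.

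Genes that respond to Wnt or belong to the barrier programme followed the transporters in direction, with 15 of 18 at least 2-fold lower and a median log2 ratio of -3.20. Lef1, a transcription factor and target of Wnt signalling, and Apcdd1, a Wnt antagonist and target, had 1 UMI each, or 5.55 CPM against 612 and 914 CPM. Foxq1, a transcription factor, had 2 UMIs and was at 11.1 CPM against 519. The receptor genes were split. Fzd4, the receptor of norrin, was 3.04-fold higher (interval 2.43 to 3.77) and Tspan12, its tetraspanin partner, 3.47-fold higher (interval 2.54 to 4.66), while Fzd6, Lrp6, Adgra2 and Reck, further receptors and co-receptors, were among the 15 lower genes.

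The low RNA of transport genes held barcode by barcode. The summed transport genes gave 9.11 to 68.2 UMIs per 10000 in the 35 Plvap-carrying barcodes, with a median of 30.1. In the 1601 endothelial barcodes that were not chosen the median was 370, and 5 of them were under 50, against 32 of the 35. The 30 barcodes without Plvap ran from 61.7 to 565 with a median of 287.

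**Figure D2:**
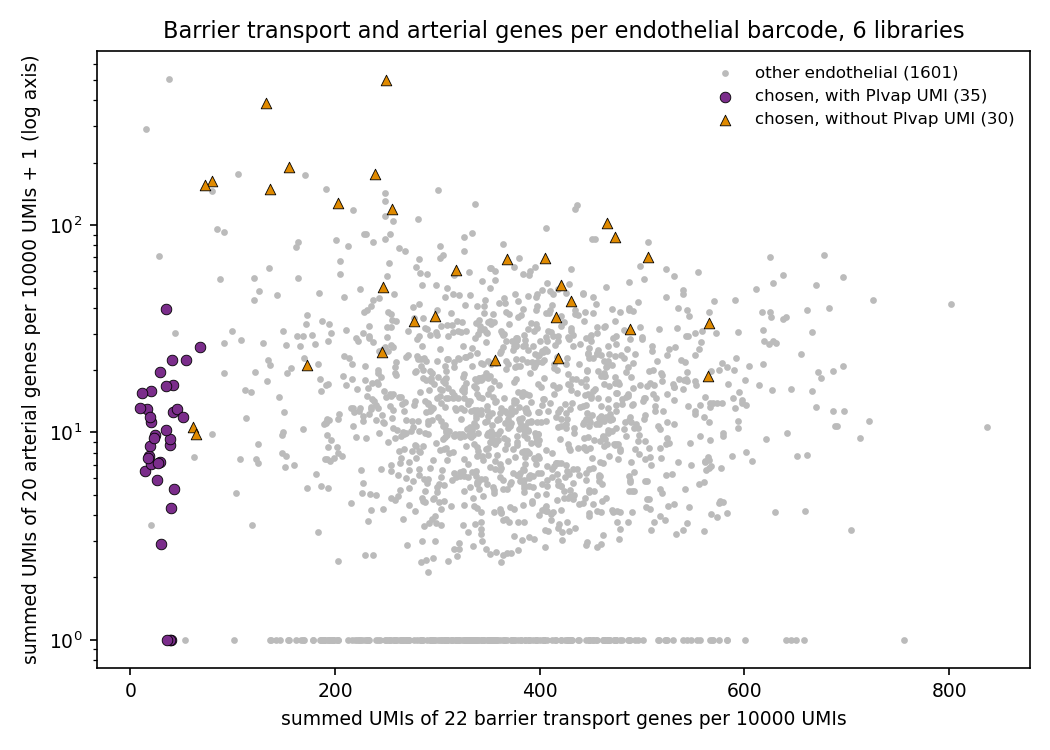
Summed UMIs of 22 barrier transport genes (horizontal axis) and of 20 arterial genes plus 1 (vertical log axis), both per 10000 UMIs, in every endothelial barcode (grey, not chosen; circles, chosen with Plvap; triangles, chosen without). The circles lie at 9.11 to 68.2 on the transport axis, and the triangles spread over 61.7 to 565 and reach arterial sums of 503.

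Genes of fenestrated or peripheral endothelium were higher where they could be measured: of 16 listed, 11 had at least 30 UMIs and these 11 were at least 2-fold higher, with a median log2 ratio of 6.13. The other 5 had too few UMIs for a ratio, among them Cd36, Kcne3 and Gata4, which had none in the 32 barcodes. Rbp7, Gpihbp1 and Exoc3l2, among the 11, reached 30 UMIs only through the 32 barcodes. Their direction was thus set by the filter, and the count of 11 is a description. In the comparison over 3 libraries given below, 3 of 6 tested were called higher, beside 1.25% of all genes. Plpp3 and Plpp1, membrane phosphatases that degrade extracellular lipid phosphates, reached 4614 and 2612 CPM against 19.2 and 37.2. Their ratios were 240-fold (interval 178 to 330) and 70.1-fold (interval 55.8 to 89.0), and each was present in all 32 barcodes. Kdr, the main signalling receptor of VEGF, was 3.84-fold higher (interval 3.54 to 4.15), and its co-receptor Nrp1 was 6.31-fold higher (interval 5.63 to 7.06). Emcn, a sialomucin of the endothelial surface, was 4.59-fold higher (interval 4.17 to 5.05).

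Several genes had nearly all of their endothelial UMIs in this library in the Plvap-carrying barcodes. Rbp7, a retinol-binding protein of endothelium, had 102 UMIs in 19 of the 32 barcodes and 2 UMIs in the 681 others. Btnl9, a butyrophilin-like surface protein, had 109 UMIs in 23 barcodes and none in the others, at least 482-fold higher. Col13a1 and Col15a1, collagens of the cell membrane and the basement membrane zone, were at least 442-fold and 323-fold higher. Car8, a protein related to carbonic anhydrases, was at least 424-fold higher, Exoc3l2 at least 362-fold, Fam167b at least 345-fold and Gpihbp1 at least 239-fold. Gpihbp1 carries lipoprotein lipase to the capillary lumen, and is known from heart, muscle and fat. Ednrb, the endothelin receptor type B, had 299 CPM against 0.837.

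Lipid handling was covered in part by these genes. Of 8 fatty acid and lipid genes with at least 30 UMIs, 5 were at least 2-fold higher (Gpihbp1, Plpp1, Plpp3, Rbp7 and Tcf15) and 1 lower (Acsl3). Of the 16 listed, 4 were at 0 in the 32 barcodes and 7 in the others. Cd36, a fatty acid translocase, and Meox2, a transcription factor of fatty acid uptake in heart and muscle endothelium, were at 0 in the 32 barcodes.

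Of 16 tip cell and sprouting genes, 6 were at least 2-fold higher and 1 lower. Col4a1 and Col4a2, the chains of the main type IV collagen, were 2.67-fold (interval 2.32 to 3.05) and 3.83-fold higher (interval 3.22 to 4.53). Ramp3, a partner of the adrenomedullin receptor, was 33.3-fold higher (interval 22.3 to 50.8) and the adhesion molecule Mcam 22.1-fold higher (interval 13.0 to 38.3). Apln and Pgf, both used as tip cell markers, were at 0. Of 3 genes of proliferation with at least 30 UMIs, none was 2-fold higher or lower.

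Among matrix and vesicle genes, 5 of 14 basement membrane genes were at least 2-fold higher and 3 lower. Hspg2, the core protein of perlecan, was 6.86-fold higher (interval 5.68 to 8.27), while Fn1, fibronectin, had 1 UMI, at 5.55 CPM against 975. Of 9 caveolar genes, 3 were higher: Ehd4, a membrane-shaping ATPase, was 30.7-fold higher (interval 25.5 to 37.0), Cavin2 2.85-fold and Cavin3 5.32-fold. Cav1, the main caveolar coat protein, was at 261 CPM against 459.

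In the insulin-like growth factor system, Igfbp3 was accompanied by 2 other binding proteins. Igfbp7 was 4.34-fold higher (interval 4.04 to 4.65) and Igfbp4 29.2-fold higher (interval 15.4 to 57.8). Igf1r, the receptor, was 23.5-fold lower (interval 14.5 to 41.1), at 88.7 CPM against 2085.

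No list of genes of a vessel segment was higher as a whole in the 32 barcodes. Of 11 capillary genes, 9 were at least 2-fold lower. Spock2, a matrix proteoglycan, was at 22.2 CPM against 4377, and 1 gene, Rgcc, a regulator of the cell cycle, was 13.7-fold higher (interval 12.1 to 15.6). Of 11 venous genes, 6 were lower and none higher. Vwf and Vcam1 had no UMI. Of 16 arterial genes, 8 were lower and 4 higher (Efnb2, Eln, Fbln2 and Gja4). Mgp and Gkn3 of the arterial list had no UMI in any of the 35 Plvap-carrying barcodes. In control replicate 1 Mgp was also rare in the barcodes not chosen, with a UMI in 22 of 681. Efnb2, an ephrin of arterial cells, was 4.84-fold higher in the 32 (interval 3.67 to 6.33).

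Immediate early genes were higher in 13 of 18 members with a median log2 ratio of 1.49, with Fos 6.14-fold higher (interval 5.57 to 6.75) and Jun 2.84-fold higher. Of 11 heat shock genes, 1 was higher and 2 lower. Of 13 interferon and class I genes, 4 were higher, among them H2-D1, a class I heavy chain, at 2.58-fold (interval 2.27 to 2.94), and 2 were lower. Immediate early genes can rise while tissue is digested, and their part in the other differences was not tested.

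Markers of other cell types were mostly absent from the 32 barcodes. All 7 fibroblast and all 5 ependymal markers were at 0, as were 11 of 13 pericyte, 7 of 8 oligodendrocyte and 9 of 10 microglial and leukocyte markers. In the others of control replicate 1, 6 fibroblast, 5 ependymal, 7 pericyte, 2 oligodendrocyte and 8 microglial and leukocyte markers were also at 0. The choice itself limited Vtn and Rgs5 of the pericyte list and Slc1a3 of the astroglial list. The summed level of the choroid plexus epithelium list was 222 CPM against 83.7 in the others, with 6 of 9 markers at 0, among them Ttr, the defining one. The astroglial list was at 466 CPM against 89.1, made up of Gja1 and Clu alone, with 8 of 10 markers at 0. Gja1, the gene of the knockouts, had 70 UMIs in 24 of the 32 barcodes. Of the lymphatic list 6 of 7 were at 0, leaving Flt4. RNA of the erythroid list, mostly haemoglobin, was at 128 CPM against 5876 in the others of control replicate 1. That high level was particular to this library. In the barcodes not chosen, the list was at 9.22 CPM in control replicate 2, 104 and 240 in GlastiKO and 62.4 and 0 in ECiKO. Scrublet, a doublet caller, marked 2 of the 35 Plvap-carrying and 2 of the other chosen barcodes.

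**Figure D3:**
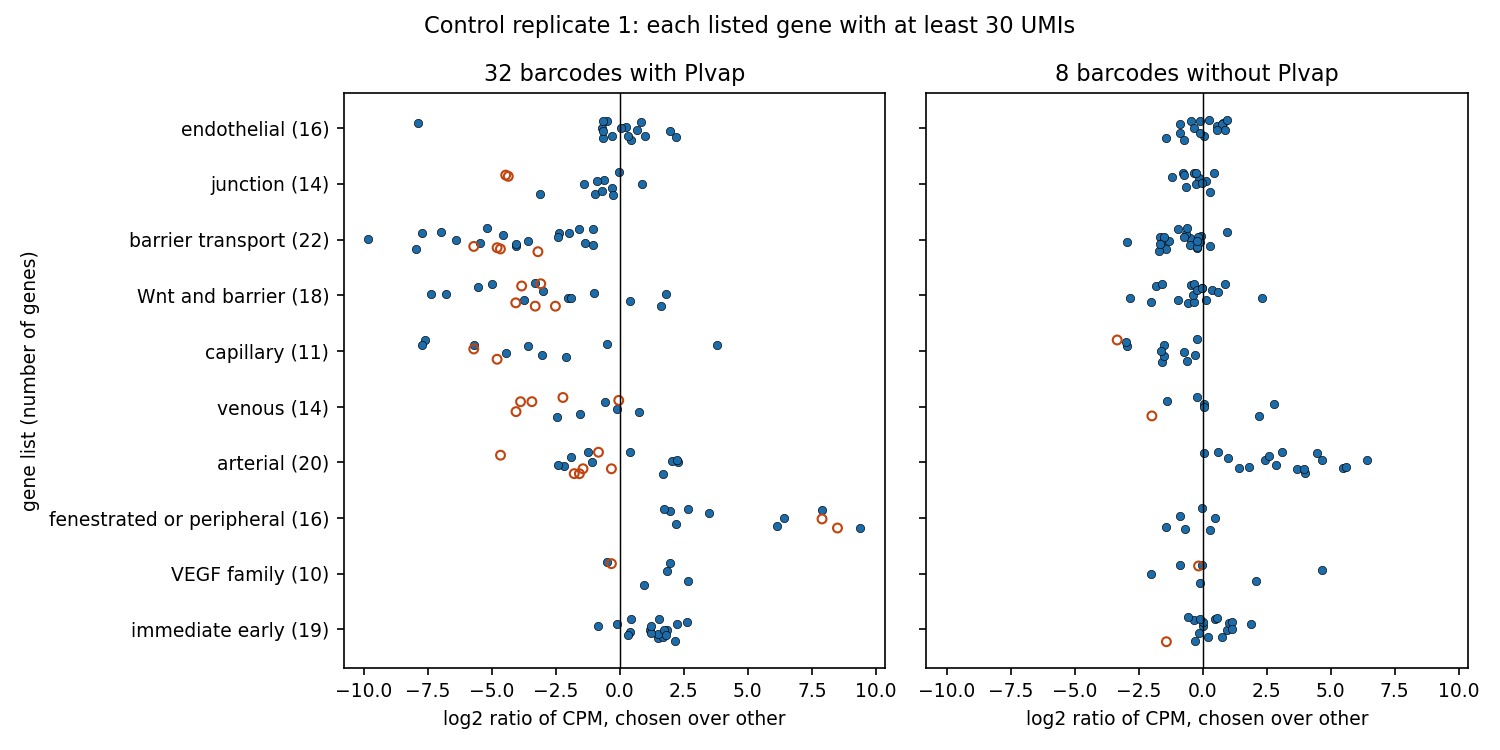
Log2 ratio of CPM between chosen and not chosen endothelial barcodes of control replicate 1, 1 point per gene of each list (number of listed genes in brackets), for the 32 barcodes with Plvap and the 8 without. Genes under 30 UMIs are not shown, and open circles are genes without a UMI in 1 of the 2 sets, drawn at the bound that a floor of 3 counts allows unless that bound lies past 0. With Plvap the transport genes lie left of 0 and the fenestrated or peripheral genes right of it, and without Plvap the arterial genes lie right of 0.

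The Plvap-carrying barcodes came from animals of both sexes. Xist, expressed from the inactive X chromosome of females, was seen in 21 of the 35 and Y-linked genes in 7 others, and none had both. In control replicate 1, Xist was seen in 21 of the 32 and Y-linked genes in 4. Of the 681 others of that library, 221 had Xist and 266 had Y-linked genes. Xist was thus more frequent among the 32, and Y-linked genes less. How many animals the 32 came from cannot be told, since the labels do not give the animals of a library. The profile outside control replicate 1 rests on 3 barcodes. The GlastiKO barcodes had 9 and 3 Plvap UMIs, 0 and 18 of Igfbp3, 2 and 7 of Cd24a, 3 and 4 of Plpp1, and no Cldn5 UMI. The control replicate 2 barcode had 18 Plvap, 59 Igfbp3, 11 Cd24a, 52 Plpp3 and 3 Rbp7 UMIs and no Cldn5. Their transport genes summed to 68.2, 9.11 and 35.4 per 10000 UMIs, against 11.6 to 54.6 in the 32 of control replicate 1, so 1 of the 3 lay above that range and 1 below it.

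The 30 chosen barcodes without Plvap carried Cldn5 and barrier transporters, the transporters at a lower summed level than the barcodes not chosen. Cldn5 had 2 to 59 UMIs per barcode with a median of 27, and was at 6196, 4779 and 4615 CPM in replicate 1 of control, GlastiKO and ECiKO against 5278, 4073 and 4759 CPM in the barcodes not chosen. The summed transport genes were at 30348, 30711 and 29485 CPM against 38564, 35316 and 38302. Kdr was at 631, 671 and 519 CPM against 1150, 1348 and 1226, lower in each of the 3 libraries. Rbp7, Btnl9, Gpihbp1 and Col15a1 had no UMI in them in these libraries.

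Arterial genes set them apart. Their summed arterial level was 14192, 9503 and 6053 CPM in control, GlastiKO and ECiKO replicate 1 against 1682, 1569 and 1723 CPM in the barcodes not chosen. Mgp, a matrix protein that limits calcification of arteries, was at 4302, 3329 and 1099 CPM against 49.8, 68.5 and 149. Gkn3, a marker of brain arteries, was at 2595, 349 and 1278 CPM against 57.3, 49.4 and 25.8. Bmx, a kinase of arterial endothelium, was at 257, 376 and 340 CPM against 29.7, 46.1 and 30.8, and Sema3g, a semaphorin of arteries, at 772, 993 and 499 against 106, 94.8 and 90.7. Each of these genes was higher in all 3 libraries, but single barcodes carried much of the level. In GlastiKO replicate 1, 94 of the 124 Mgp UMIs came from 1 barcode. Without the barcode with the most UMIs in each library, a setting added after seeing the data, Mgp was at 2714, 904 and 492 CPM in control, GlastiKO and ECiKO, and Gkn3 at 1767, 143 and 756. The summed arterial level was then 11112, 5904 and 5295 CPM, still above that of the barcodes not chosen.

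Not every barcode without Plvap was high in arterial RNA. Per barcode, the arterial genes summed to 8.88 to 503 UMIs per 10000 with a median of 55.1, against a median of 10.2 in the barcodes not chosen. Of the 30, 28 lay above that median and 15 above the 95th percentile of 50.7 (6 of 8 in control replicate 1, 2 of 8 in GlastiKO replicate 1 and 6 of 10 in ECiKO replicate 1). Mgp was present in 13 of the 30 and Gkn3 in 19. Capillary and venous markers differed as well: Car4, a carbonic anhydrase of capillaries, had no UMI in the 26 barcodes of the libraries numbered 1, and neither had Slc38a5, a glutamine transporter of the venous list, while Vwf was at 842, 779 and 519 CPM against 180, 241 and 176.

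**Figure D4:**
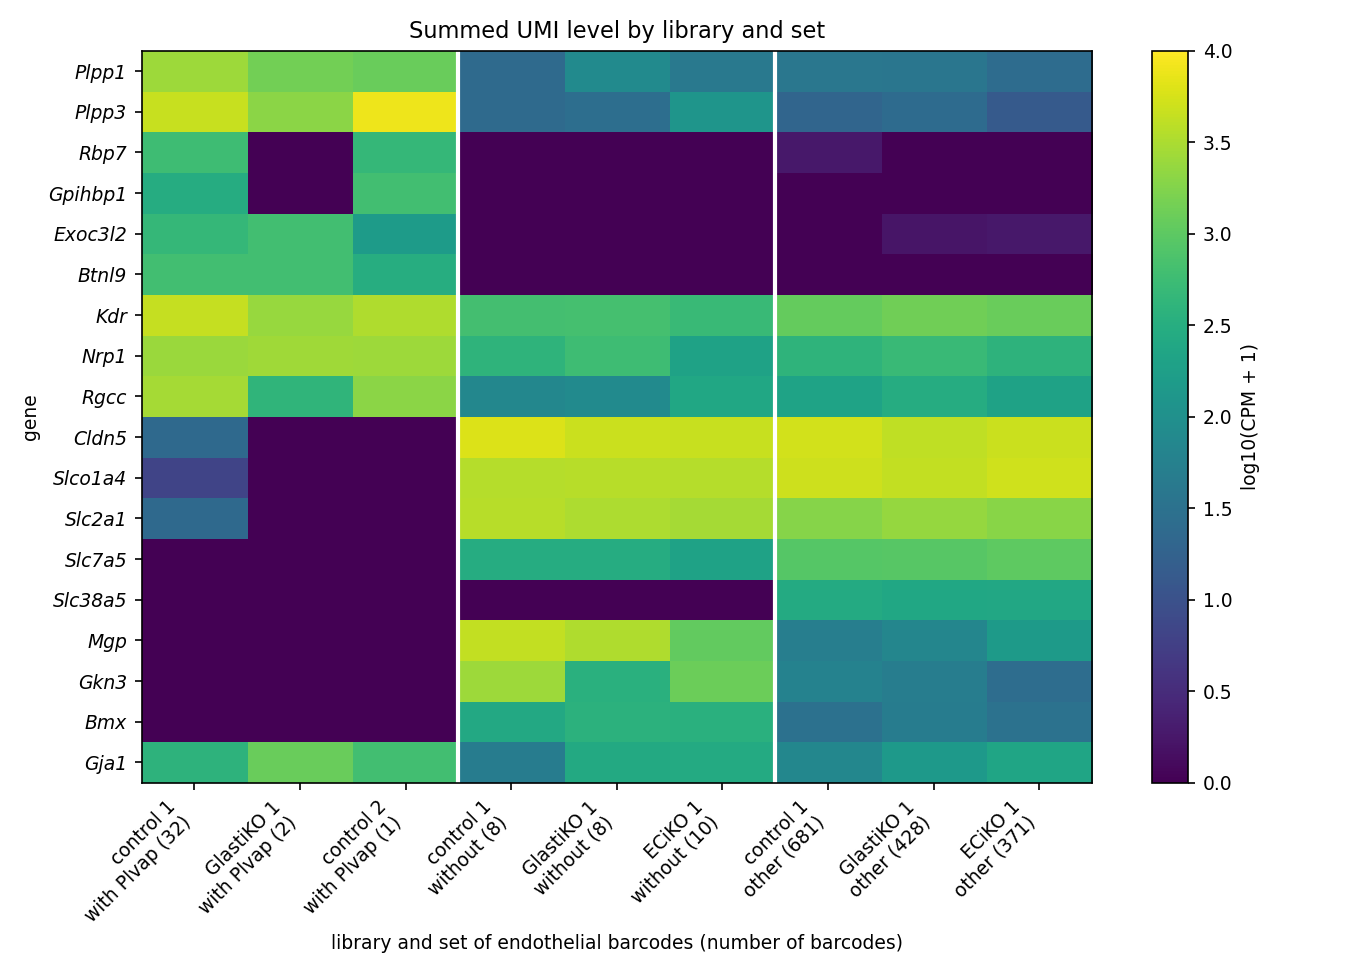
Heat map of log10(CPM + 1) of 18 genes (rows) in chosen barcodes with Plvap, chosen barcodes without Plvap and endothelial barcodes not chosen (columns, by library, number of barcodes in brackets). Plpp1 and Plpp3 are high and Cldn5, Slco1a4 and Slc2a1 low in the 3 columns with Plvap, and Mgp is highest in the 3 columns without it, at 1099 to 4302 CPM.

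To see which other genes went with the 4 rule genes in more than 1 library, UMIs were summed over chosen and over other endothelial barcodes in replicate 1 of control, GlastiKO and ECiKO, each of which had at least 10 chosen barcodes, and compared with edgeR with the library as a block. The genes of the rule were left out of the calls. Of 7926 genes tested, 99 (1.25%) were called higher and 114 (1.44%) lower at an adjusted p under 0.05, 2.69% in all, and 990 had an unadjusted p under 0.05. The contrast is that of the rule, so the calls describe the chosen barcodes. The libraries mixed the 2 kinds differently, with 32 of 40 carrying Plvap in control, 2 of 10 in GlastiKO and 0 of 10 in ECiKO.

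Arterial genes had the most calls of the lists. Of 18 tested, 12 were called higher and none lower, with a median log2 fold change of 2.49 against -0.11 over all genes. Clu, 1 of the 12, did not have the same direction in all 3 libraries. In control replicate 1 all 184 Mgp UMIs of the chosen barcodes lay in the 8 without Plvap. In the 32 with Plvap, 8 of 16 arterial genes were at least 2-fold lower and 4 higher. Mgp was higher by 4.08 on the log2 scale (SE 0.41, adjusted p = 1.43e-08, 3 of 3 libraries), Eln, the gene of elastin, by 3.88 (SE 0.47) and Gkn3 by 3.75 (SE 0.43). Fbln5, which organises elastic fibres, was higher by 3.77 (SE 0.67) and Vegfc, a ligand of VEGF receptors, by 3.01 (SE 0.42). Sema3f, a secreted semaphorin, had the largest change of the 12 genes named for rising, 5.08 (SE 0.77, adjusted p = 3.25e-05). It was at 161, 23.7 and 20.0 CPM in the chosen barcodes of control, GlastiKO and ECiKO against 1.67, 3.29 and 2.5 CPM, so the level in the knockouts came from 1 UMI each.

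Capillary and barrier genes were lower. Of 11 capillary genes 7 were called lower, of 22 transport genes 10, and of 18 Wnt and barrier genes 5, and none of these lists had a gene called higher. Tfrc was at 85.2, 285 and 79.9 CPM in the chosen barcodes of control, GlastiKO and ECiKO and at 1192, 756 and 955 in the others, so it fell by 2.97 on the log2 scale (SE 0.42, adjusted p = 9.57e-06). Slc7a5 fell by 2.79 (SE 0.40) and Slc16a1, a monocarboxylate transporter, by 3.14 (SE 0.41). Slco1a4 fell by 1.29 (SE 0.37, adjusted p = 0.0484), at 690 CPM against 5042 in control, 3298 against 4288 in GlastiKO and 3636 against 5230 in ECiKO. Slc38a5, Rnase4, Cpe, Itga4, Fam13a, Sesn3, Lmntd1 and Prkcb were called lower with no UMI in the chosen barcodes, so their fitted sizes depend on the prior count. Of 13 junction genes none was called, with a median log2 fold change of -0.55.

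Plpp3 and Plpp1 were called higher with 5.06 (SE 0.64, adjusted p = 1.22e-06) and 3.69 (SE 0.61, adjusted p = 0.000116). Plpp3 was at 3734, 261 and 120 CPM in the chosen barcodes of control, GlastiKO and ECiKO against 19.2, 24.4 and 12.5. Without the Plvap-carrying barcodes, a comparison chosen after seeing the data, Plpp3 was at 1.57 (SE 0.77, adjusted p = 0.412) and Plpp1 at 0.38 (SE 0.79, adjusted p = 0.942), and neither was called. Without control replicate 1, Plpp1 was at 1.90 (adjusted p = 0.414). Gja1 was called higher by edgeR at 1.35 (SE 0.37, adjusted p = 0.0356), in the same direction in each library. Without the Plvap-carrying barcodes Gja1 was at 0.26 (SE 0.38, adjusted p = 0.907) and was not called.

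That comparison, of 26 barcodes without Plvap in the 3 libraries, called 85 genes higher (1.11% of 7645) and 87 lower (1.14%). Arterial genes were called higher in 14 of 17 with a median log2 fold change of 3.05, and Mgp was at 4.91 (SE 0.27) and Gkn3 at 4.71 (SE 0.30). Transport genes were called lower in 8 of 22, with a median of -0.73, and Kdr was lower by 1.18 on the log2 scale (SE 0.25, adjusted p = 0.000341), while Ly6c1, a surface antigen of endothelium, was called higher. Between the fits with and without the Plvap-carrying barcodes, 39 of the genes called higher were shared (39.4% of 99 and 45.9% of 85), and 55 of those called lower (48.2% of 114 and 63.2% of 87). These fits share all their other barcodes.

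Across genotypes, the sum over all endothelial barcodes of a library gives the weight of these cells in the endothelium. In such sums fewer cells of a type and less RNA per cell cannot be told apart. Plvap was at 209 and 153 CPM in control replicates 1 and 2, at 7.69 and 0 in GlastiKO and at 0 in both ECiKO libraries, or 545, 18, 12, 0, 0 and 0 UMIs. The 18 UMIs of control replicate 2 came from 1 barcode of 43. Plvap was a gene of the rule, so its levels by group are a description. Cd24a was at 146 and 110 CPM in control, 9.61 and 0 in GlastiKO and 7.19 and 0 in ECiKO. Esm1 was at 63.9 and 8.49 CPM in control, the latter from 1 UMI, and at 1.92 and 0 in GlastiKO and 0 in ECiKO. Rbp7 was at 39.8 and 25.5 CPM in control and at 0 in all 4 knockout libraries.

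Igfbp3 and Plpp1 were present in all libraries. Igfbp3 was at 216 and 527 CPM in control, 66.6 and 45.4 in GlastiKO and 60.7 and 78.9 in ECiKO. Plpp1 was at 215 and 119 CPM in control, 41.0 and 45.4 in GlastiKO and 25.6 and 105 in ECiKO. The ECiKO replicate 2 values rest on 3 and 4 UMIs, at or just above the floor of that library.

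Over all 6 libraries edgeR called 29 of 8692 genes (0.334%) between GlastiKO and control, 17 of them lower (0.196%) and 12 higher (0.138%). Between ECiKO and control it called 23 (0.265%), 21 lower (0.242%) and 2 higher (0.023%). An unadjusted p under 0.05 in edgeR was seen in 153 and 131 of the 8692 genes, fewer than the 5% that chance alone gives. The markers chose these barcodes, which were known to lie mostly in control replicate 1, so their fitted changes are given as a description, with no test. Plvap was at -4.78 on the log2 scale in GlastiKO (SE 0.44) and at least 88.6-fold lower in ECiKO, where it had no UMI. Cd24a was at -3.99 (SE 0.45) in GlastiKO and -4.24 (SE 0.52) in ECiKO. Igfbp3 was at -2.35 in each (SE 0.32 and 0.35), and Plpp1 at -2.08 (SE 0.34) and -2.58 (SE 0.40). Rbp7 was at least 23.3-fold and 16.8-fold lower over the pooled libraries. Esm1 had too few UMIs for the fit and was at least 26.4-fold lower in ECiKO.

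Leaving out the chosen barcodes takes away the UMIs of the 4 rule genes by construction, and at most 2 of them can remain in a barcode. What remained was 2 Plvap UMIs, both in control replicate 1. Igfbp3 was then at 8.79 and 0 CPM in control, 16.5 and 14.4 in GlastiKO and 17.5 and 0 in ECiKO. Plpp1, which the rule did not use, was then at 37.2 and 55.3 CPM in control, 35.5 and 48.0 in GlastiKO and 25 and 109 in ECiKO, with fitted changes of -0.0038 (SE 0.41) and -0.39 (SE 0.46) on the log2 scale.

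**Figure D5:**
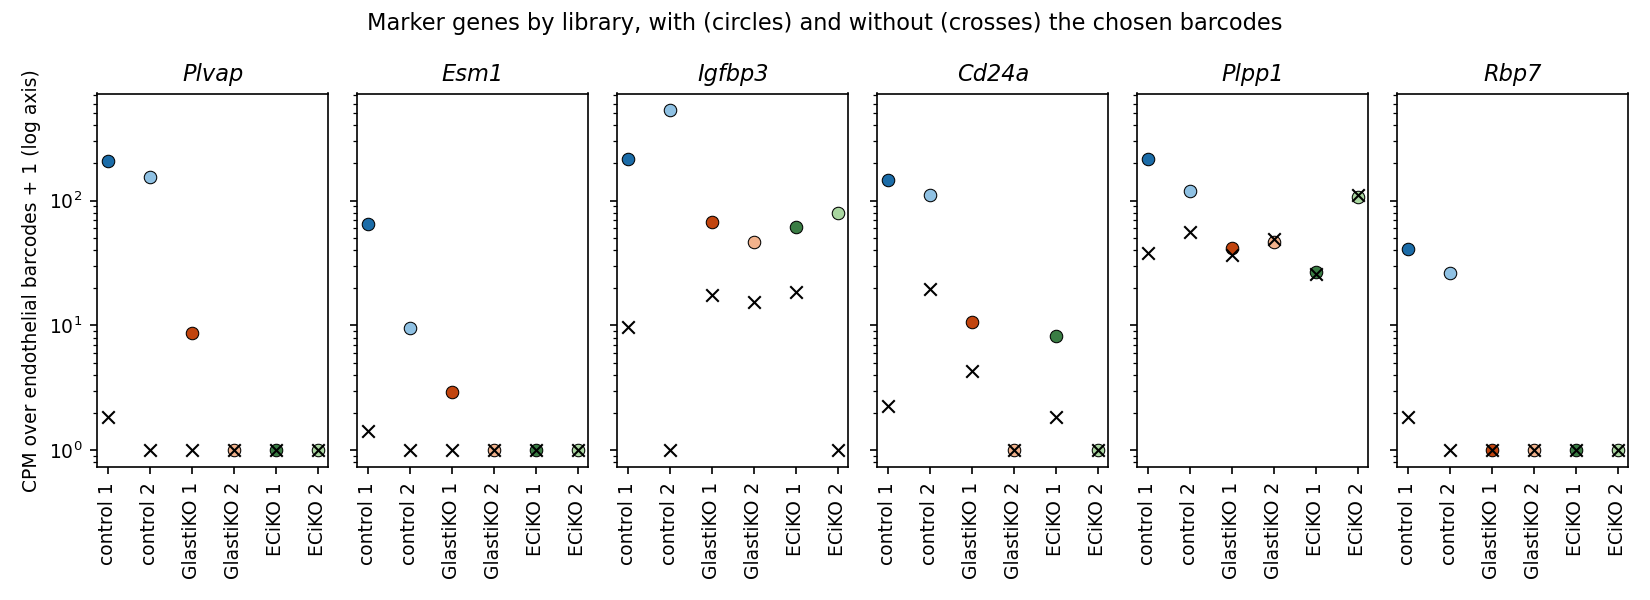
CPM plus 1 (log axis) of the 6 marker genes over all endothelial barcodes of each library (circles) and without the chosen barcodes (crosses). The circles of Plvap, a gene of the rule, stand at 209 and 153 CPM in control, 7.69 and 0 in GlastiKO and 0 in ECiKO. Without the chosen barcodes Plvap is at 0.837 CPM or 0.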

How the data were processed

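Single-cell RNA was measured with the 10x Chromium 3′ kit, per the labels. The authors deposited whole UMI counts for each gene in each barcode they had called a cell, not normalized. Cell Ranger is given as 5.0.0 (with mm10) per the labels' protocols and the file headers. Per the submitters' processing notes it was 2.1.1, beside Seurat 4. No count column belonged to another sample.

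The 65 barcodes, the gene lists and the tests were chosen with earlier results of these data known. The comparison with and without Plvap was chosen after seeing the data. Barcodes were summed per library and CPM were taken over those sums. Ratios within control replicate 1 and shares carry exact 95% intervals, which cover counting error only, as do floors of 3 counts. Chosen and other sums of the 3 libraries with at least 10 chosen barcodes were compared with edgeR 4.0.16 in R 4.3.3 (filterByExpr, TMM, quasi-likelihood F test, library as a block, Benjamini-Hochberg adjustment over all genes, threshold 0.05), leaving 2 residual degrees of freedom, and the biological coefficient of variation was 26.6%. Endothelial sums of all 6 libraries were compared by group in the same way, without a block, with 3 residual degrees of freedom and 20.3%. Called genes have p-values far below what so few degrees of freedom give alone, since the spread is pooled over genes. Standard errors are the log2 fold change over the root of F. Labels do not say whether replicates are separate animals, so p-values may measure technical spread. Same-numbered libraries deviated together with correlations of 0.0503, 0.0548 and 0.0565 across genes. The libraries numbered 2 held 21 to 62 endothelial barcodes, and such noisy sums keep correlations low. They therefore cannot tell whether same-numbered libraries are pairs. In each group library 1 was mostly endothelial and library 2 mostly not, a shared difference that the fit without a block does not take up. Counts of calls with a replicate block are given below. Shares were compared by exact permutation over libraries. Genes were named by rule: the 6 markers, up to 12 called genes per direction with at least 20 CPM and 1 direction in all libraries ranked by fold change, the 12 largest ratios per direction in control replicate 1, and up to 4 of the most abundant genes of each list. Not all of those are described, and others (such as Slc2a1, Slc7a5, Mfsd2a, Tfrc, Fzd4, Tspan12, Efnb2, Bmx, Sema3g, Hspg2, Ocln, Ramp3 and Mcam) were picked after their values were seen. Scrublet in scanpy 1.11.5 called 49 doublets (0.775% of 6323), which were kept and left out in an alternative. DESeq2 1.42.0 was an alternative. The fits were tested on simulated data. Gene positions are from GENCODE on mm10. Some genes of the lists are not reported here.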

Additional observations from a re-analysis of the deposited data

How the results depend on the processing

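The chosen share of endothelial barcodes was 3.92% in control replicate 1 and 0.617% in ECiKO replicate 1 after thinning to 1000 UMIs, and 8.90% in control replicate 1 among barcodes of at least 3000 UMIs (an alternative added after seeing the data). Without Igfbp3 in the rule it was 0.457% in GlastiKO replicate 1 and 0.525% in ECiKO replicate 1. With a threshold of 2 or 5 UMIs it was 6.38% or 4.99% in control replicate 1, 3.88% or 1.14% in GlastiKO replicate 1 and 3.94% or 1.31% in ECiKO replicate 1, and at 5 UMIs it was 0 in GlastiKO and ECiKO replicate 2. Of the calls between chosen and other barcodes (99 higher, 114 lower), DESeq2 gave 69 and 37, no low-count filter 176 and 181, no library block 258 and 209, and thinning to 1000 UMIs 31 and 44. Leaving out 1 library gave 31 to 171 higher and 43 to 183 lower, the lowest without control replicate 1 and the highest without GlastiKO replicate 1. With a threshold of 5 UMIs no fit was possible, since only control replicate 1 kept 10 chosen barcodes.

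In the genotype comparison DESeq2 called 0 genes higher (7 and 5 at an unadjusted p under 0.05) and 2 lower in each knockout. Without the chosen barcodes, GlastiKO had 7 higher and 4 lower and ECiKO 4 lower. Without only the Plvap-carrying ones, added after seeing the data, edgeR called 0 lower in GlastiKO (39 at an unadjusted p under 0.05) and 4 in ECiKO. Igfbp3, whose UMIs these steps remove by construction, then reversed, to 1.01 and 1.03 on the log2 scale without the chosen and 0.95 and 1.15 without the Plvap-carrying barcodes in GlastiKO and ECiKO, and Plpp1 to 0.034 in GlastiKO. Leaving out 1 library gave 3 (without ECiKO replicate 1) to 14 higher and 3 (without control replicate 1) to 27 lower genes in GlastiKO, and 0 (without control replicate 1, with 130 at an unadjusted p under 0.05 in edgeR) to 6 higher and 6 to 34 lower in ECiKO. With the replicate block, GlastiKO had 18 higher and 21 lower and ECiKO 5 and 30. The depth of the libraries numbered 2, with 21 to 62 endothelial barcodes, limits all genotype values, and the cause of these changes was not tested.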
